A study of Mus musculus with 19 samples.

Results

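Of 20679 cells sequenced by Drop-seq from the mouse medial amygdala, 8499 carried the class letter N in the deposited table of all cells, and 6206 of these did not appear in the separate deposited table of 2444 neurons. These 6206 cells, called left-out cells here, were chosen by their class letter and by the absence of their barcode and library from the neuron table, with no expression value in the rule. The neuron table held the other 2293 cells of class N and 151 cells of another class. Drop-seq catches single cells in droplets with barcoded beads and counts transcripts by unique molecular identifiers (UMIs).

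All cells came from male C57BL/6J mice and were dissociated with Act-Seq, a protocol built to limit transcription while tissue is taken apart. There were 6 libraries from naive control mice of 8 weeks, 2 from seizure-affected mice, 4 from mice under acute stress by immobilization, and 4 from mice with acute odor exposure. Seizure replicate 1, immobilization replicates 2 and 3, and odor replicates 1 and 2 came from mice of 9 weeks, and the other libraries from mice of 8 weeks. The labels name neither the agent that caused seizures nor the odors. The series also holds saline-injected control mice, which were not used here, so the seizure contrast against naive mice has no saline control. Whether replicate libraries stem from different mice is not stated, and p-values therefore cover only library-to-library spread, part or all of which can be technical. Left-out cells numbered 714, 417, 370, 239, 28 and 5 in the naive libraries, 707 and 431 after seizure, 750, 523, 346 and 38 after immobilization, and 594, 471, 488 and 85 after odor. Naive replicate 6, with 5 left-out cells, entered no sum per library and no Fos share. It counted in the shares of left-out cells, in depth and in values pooled over cells. Across libraries, 20 barcodes occurred in 2 libraries each or more, and 16 left-out cells carried one of them.

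Neurons carry long axons and dendrites supplied by kinesin motors, among them the kinesin-1 heavy chains Kif5a and Kif5c, and express growth and RNA-binding proteins such as Gap43 and Celf4. Astrocytes wrap neuronal processes, clear glutamate through Slc1a2 and Slc1a3, and make Apoe, Aldoc and Clu in large amounts. Strong neuronal activity induces immediate early genes such as Fos, Egr1 and Arc, whereas stress releases glucocorticoids, which induce genes such as Tsc22d3 and Nfkbia in neurons and glia.

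The left-out cells were the shallow end of class N. Their median was 864 UMIs and 582 genes, against 2188.5 UMIs and 1250 genes in the neuron table, and the range of genes per cell was 430 to 2700 in left-out cells and started at 707 in the neuron table. Of the left-out cells, 4566 (73.6%) had fewer than 700 genes, 1482 had 700 to 1000, and 158 had more than 1000. The neuron table held none of the 4566 class N cells under 700 genes, 59 of 888 (6.64%) from 700 up to 800, and 151 of 614 (24.6%) from 800 up to 900. It held 305 of 494 (61.7%) from 900 up to 1000, 698 of 824 (84.7%) from 1000 up to 1250, and 1080 of 1113 (97.0%) at 1250 or more. The share held thus rose in steps between 700 and 1250 genes and did not jump at a single value.

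**Figure D1:**
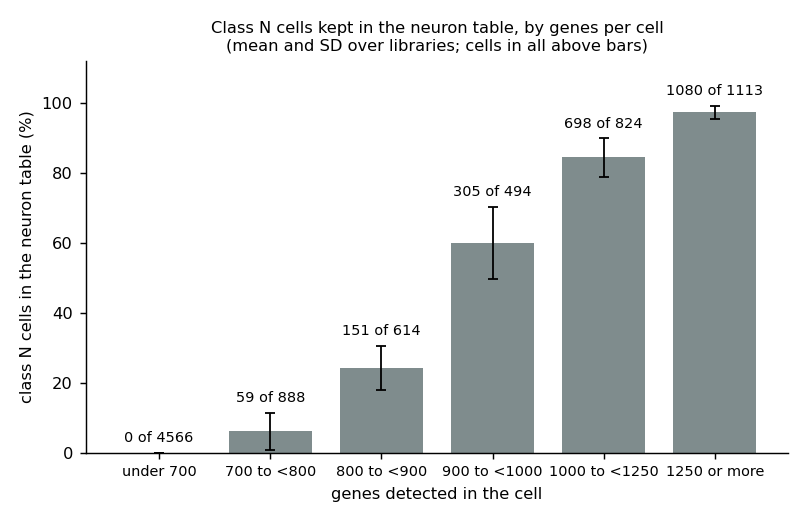
Percent of class N cells that the neuron table holds (vertical axis), by genes detected in the cell (horizontal axis). Bars are means over libraries, error bars SD over 12 to 15 libraries, and the counts above the bars are cells over all libraries. The share was 0% under 700 genes and 97.2% ± 1.93 (SD, n = 12) at 1250 or more.

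Between 707 and 1000 genes, where both sets had cells, the makeup of the RNA differed as well. The percent of class N cells held in the neuron table was 39.0 in the lowest of 5 equal bins of the share of astrocyte marker UMIs, then 36.7, 29.2, 21.2 and, in the highest bin, 7.25. Over bins of the neuron-wide share it ran the other way, from 9.04 through 18.6, 26.1 and 35.7 to 44.0. It ran from 5.17 to 55.7 over bins of the share in cytoplasmic ribosomal protein genes, and stayed between 25.1 and 28.9 over bins of the share in nuclear long noncoding RNAs. Left-out cells in this range had a median of 792 genes against 920 in the table's class N cells. Across the bins the median of genes per cell moved little, from 811 in the lowest to 814.5 in the highest bin of astrocyte share, from 808 to 813 for neuron-wide share and from 824 to 797 for ribosomal share. Of the 158 left-out cells above 1000 genes, 127 (80.4%) fell into the cluster richest in astrocyte genes, described below as cluster 2.

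Neuronal markers are described here and are no independent check of the class letter, because the authors' classes rest on the expression of the same cells. Levels are given as CPM, the UMIs of a gene scaled to the summed UMIs of a library's cells of one kind, and Drop-seq counts are not per transcript length. Kif5a (chr10:127225696-127263348 on the minus strand, GRCm38) stood at 3137 CPM ± 506 (SD, n = 15 libraries) in left-out cells, with a lowest library of 2038, a median of 3207 and a highest of 3809. In astrocytes the highest library reached 933, so no library of left-out cells overlapped them. Kif5c (chr2:49619298-49774778, plus strand) ran from 1008 to 1494 CPM, Gap43 (chr16:42248442-42340651, minus strand) from 1175 to 1630, and Celf4 from 971 to 1572. Their highest libraries in astrocytes were 330, 389 and 345 CPM. A Kif5a UMI was found in 72.6% of left-out cells after every cell was thinned to 500 UMIs, against 75.7% in the neuron table, 17.0% in astrocytes and 11.5% in oligodendrocytes. Without thinning the shares were 85.2%, 96.9%, 32.6% and 28.1%, at median depths of 864, 2188.5, 1341 and 2181 UMIs. Of 20 neuron-wide genes (Snap25, Syt1, Map2 and others) all were detected, and their summed level was 8478 CPM ± 802 (SD, n = 15), from 6047 to 9567. It was 9687 CPM ± 725 (n = 14) in the neuron table and 1847 ± 316 (n = 15) in astrocytes. The left-out cells thus carried the neuronal markers at levels far above those of glial classes and near those of the neuron table.

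Astrocyte RNA was abundant in the same cells. The 6 most abundant genes were Apoe at 21023 CPM, Cst3 at 17868, Sparcl1 at 12695, Cpe at 8290, Mt1 at 7977 and Sparc at 7250. Apoe, the main lipid carrier of astrocytes, stood at 28008 CPM in astrocytes and at 18121 in the neuron table. Cst3, Sparcl1 and Mt1 were also higher in astrocytes, at 21339, 16671 and 8886 CPM. Cpe and Sparc went the other way and were lower in astrocytes, at 4585 and 3258 CPM. Of 12 listed astrocyte markers, 11 were in the table, and they summed to 19295 CPM ± 1018 (SD, n = 15) in left-out cells, from 17673 to 20989, which lay between 16572 ± 1814 (n = 14) in the neuron table and 34896 ± 1421 (n = 15) in astrocytes. All of the 11 were detected, and the left-out and astrocyte libraries did not overlap. After thinning, 91.9% of left-out cells had a UMI of both a neuron-wide gene and an astrocyte marker, against 95.1% in the neuron table, 41.5% in astrocytes and 17.0% in oligodendrocytes. Whether the astrocyte RNA came from attached astrocyte fragments, shared droplets or free RNA was not tested. Oligodendrocyte markers summed to 4574 CPM ± 1050 (SD, n = 15) in left-out cells, above 3372 ± 1082 (n = 14) in the neuron table and 1317 ± 228 (n = 15) in astrocytes, and far below 144770 in oligodendrocytes. Microglia markers summed to 781 CPM, endothelial markers to 51.0 and mural markers to 47.6, and of the 10 mural markers the potassium channel subunit gene Abcc9 was at 0.

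**Figure D2:**
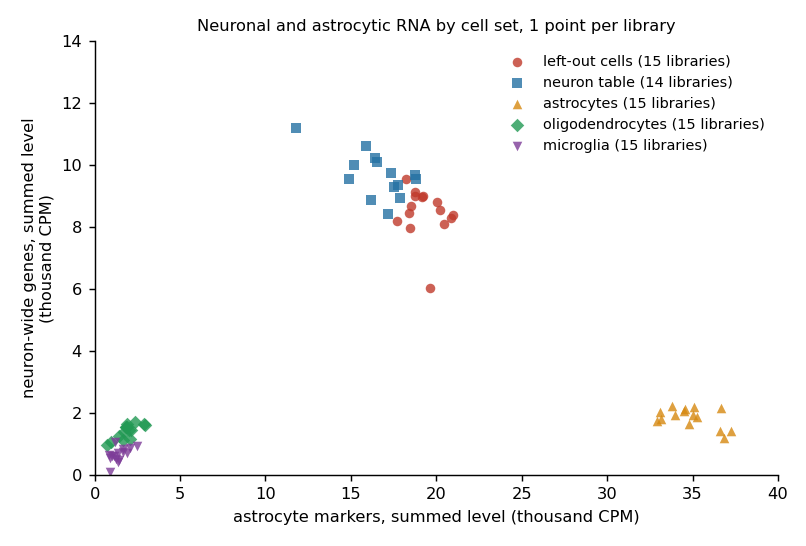
Summed level of 20 neuron-wide genes (vertical axis) against the summed level of 11 astrocyte markers (horizontal axis), both in CPM as labelled on the axes, with 1 point per library and cell set. Left-out cells lie beside the neuron table and apart from astrocytes, oligodendrocytes and microglia, with naive replicate 5 lowest at 6047 CPM of neuron-wide genes.

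The nuclear long noncoding RNA Malat1 (chr19:5795690-5802672, minus strand) set left-out cells and neuron table, each taken as a whole, apart from glia. It stood at 2884 CPM ± 1909 (SD, n = 15) in left-out cells, from 842 to 6975, against 3342 in the neuron table and 23129 in astrocytes. After thinning, 29.0% of left-out cells and 29.7% of neuron table cells had a Malat1 UMI, against at least 93.9% in each glial and vascular class. Cytoplasmic ribosomal protein genes went in the opposite direction, with a summed level of 47661 CPM ± 8048 (n = 15) in left-out cells, 51119 ± 4996 (n = 14) in the neuron table and 16746 ± 2167 (n = 15) in astrocytes. Genes of axonal transport motors and adaptors summed to 9548 CPM ± 1164, and dendrite localized mRNAs to 18925 ± 1393, against 3503 and 5710 in astrocytes. Of 1975 genes at 100 CPM or more in left-out cells, 167 were more than 2-fold above every class outside the neurons, among them Scg2, Nrgn, Gng13 and Gad2, and 1272 were below the highest glial class. Meg3, another nuclear long noncoding RNA, ran against Malat1, at 2900 CPM ± 2187 (SD, n = 15) in left-out cells and 3127 in the neuron table against 121 in astrocytes. Taken as whole sets, left-out cells and neuron table thus shared low Malat1 and high ribosomal and neurite RNA. Parts of both went against this for Malat1. It stood at 52014 CPM in cluster 5 of the left-out cells, described below, and at 28818 CPM in cluster N12 of the neuron table, each pooled over cells.

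Inhibitory markers outnumbered excitatory ones. Gad2, which makes GABA, stood at 236 CPM ± 26.2 (SD, n = 15) and Gad1 at 77.7 ± 27.3, while the glutamate transporter genes Slc17a6 and Slc17a7 stood at 79.9 ± 35.9 and 14.9 ± 11.7. The same genes stood at 226, 90.4, 80.4 and 27.4 CPM in the neuron table. After thinning, 1019 left-out cells (16.4%) had a UMI of an inhibitory marker and 232 (3.74%) of an excitatory one, and 30 had both, where 38.1 would fall together if the kinds were independent.

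Set against the neuron table within each library, the left-out cells had nearly the same profile as a mean over libraries. This is a description with no test, because the authors' classes rest on the expression of the same cells. Of 2081 genes at 100 CPM or more in either set, all lay within 2-fold as a mean over 14 libraries, with 10th and 90th percentiles of -0.26 and 0.25 on the log2 scale. Such means can hide wide spread between libraries. Avp differed by 0.10 ± 3.49 (log2, SD), at 106 CPM in left-out cells against 2069 in the neuron table, and Meg3 by -0.28 ± 1.89. The 4 class markers differed little, at -0.05 ± 0.13 (log2, SD over 14 libraries) for Kif5a, -0.07 ± 0.16 for Kif5c, 0.03 ± 0.31 for Gap43 and -0.10 ± 0.20 for Celf4. Among cells of 700 to 1000 genes in both sets they were lower in left-out cells, at -0.27 for Kif5a (higher in 1 of 12 libraries), -0.18 for Kif5c (5 of 12), -0.36 for Gap43 (0 of 12) and -0.36 for Celf4 (2 of 12). Only 22 genes were higher in left-out cells in each of the 14 libraries and 14 were lower. The higher ones were mostly glial: the myelin genes Mbp (0.58) and Cnp (0.47), and the astrocyte genes Slc4a4 (0.40), Mfge8 (0.39), Sparcl1 (0.30) and Clu (0.28), led by the heat shock gene Hspa2 (0.72). The lower ones held neuronal genes: Cdk5r1 (-0.39), the activator of a neuronal kinase, Ndrg4 (-0.38), Stmn3 (-0.36), Nrgn (-0.32), a calmodulin-binding protein of dendrites, and Map1b (-0.30), led by Meaf6 (-0.63).

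As lists, astrocyte markers were higher in left-out cells by 0.23 ± 0.19 on the log2 scale (SD, 14 of 14 libraries) and oligodendrocyte markers by 0.48 ± 0.44 (14 of 14). Neuron-wide genes were lower by 0.20 ± 0.20 (14 of 14), and axon growth and microtubule genes by 0.13 ± 0.06 (14 of 14). With both sets thinned to 500 UMIs per cell, these became -0.065 for neuron-wide genes (higher in 3 of 14) and 0.0065 for axon growth genes (5 of 14), and astrocyte markers 0.40. With both sets held to cells of 700 to 1000 genes, the gap widened to 0.54 for astrocyte markers and -0.31 for neuron-wide genes. It narrowed to 0.21 for oligodendrocyte markers (higher in 7 of 12 libraries) and to 0.14 for Mbp (7 of 12). The gap junction gene Gja1 of astrocytes then differed by 1.43 ± 0.42 (1110 against 428 CPM, 12 of 12 libraries), Mfge8 by 1.26 ± 0.37 and Agt by 1.13 ± 0.38. On the lower side were Pcp4 (-0.65 ± 0.39), the synaptic kinase gene Camk2a (-0.47 ± 0.19), Camk2n1 (-0.49 ± 0.26), Map2 (-0.38 ± 0.17) and several ribosomal protein genes, Rps19 (-0.44 ± 0.16) among them. Within the window of 700 to 1000 genes, left-out cells thus held more astrocyte and less neuronal RNA than the cells kept in the table. The window does not equalize depth, as the medians of 792 and 920 genes given above show.

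The left-out cells fell into 6 clusters, all found in 13 or more libraries, with no library giving more than 23.2% of any. Clustering and its leading genes use the same counts, so they describe the cells and test nothing. Cluster 1 (2821 cells, 45.5%) was led by the peptide gene Sst, Gad2, Ncald and Vsnl1, at 1.12, 1.06, 1.02 and 1.02 (log2) over the other left-out cells, and had 14712 CPM of astrocyte markers. Cluster 2 (2248 cells, 36.2%) was led by Htra1 (1.88), Mfge8, F3 and Gja1, with 27347 CPM of astrocyte markers and 5806 of neuron-wide genes. After thinning, every cell of cluster 2 had an astrocyte marker UMI and 89.5% also had a neuron-wide one. Its leading genes are astrocytic and go against its class letter.

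Cluster 3 (482 cells, 7.77%) was led by the microglial genes Ctss (3.80), C1qa, C1qc and Csf1r, and had 5998 CPM of microglia markers beside 8134 of neuron-wide genes. Cluster 4 (367 cells, 5.91%) was led by genes of cortical and other excitatory neurons, Nptxr (3.09), Slc17a7 (3.07) and Adcy1 (2.92), and 10.6% of its thinned cells had an excitatory marker UMI. Cluster 5 (220 cells, 3.54%) was led by the nuclear long noncoding RNAs Meg3 (7.35), Snhg11 (6.18), Miat (6.04) and Malat1 (5.60). Its nuclear long noncoding RNAs summed to 147977 CPM, against 1871 in cluster 1, while its astrocyte markers (2063 CPM) and ribosomal protein genes (7929 CPM) were low, as was Kif5a, with a mean of 618 CPM. Cluster 6 (68 cells, 1.10%) was led by the vasopressin gene Avp (6.59), Ndnf (5.23), Nhlh2 (4.42) and the glutamate transporter gene Slc17a6 (4.29), with a median of 1149 UMIs. Cluster 5 held 10969 of the 16917 Malat1 UMIs of all left-out cells, and cluster 6 held 417 of their 580 Avp UMIs.

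**Figure D3:**
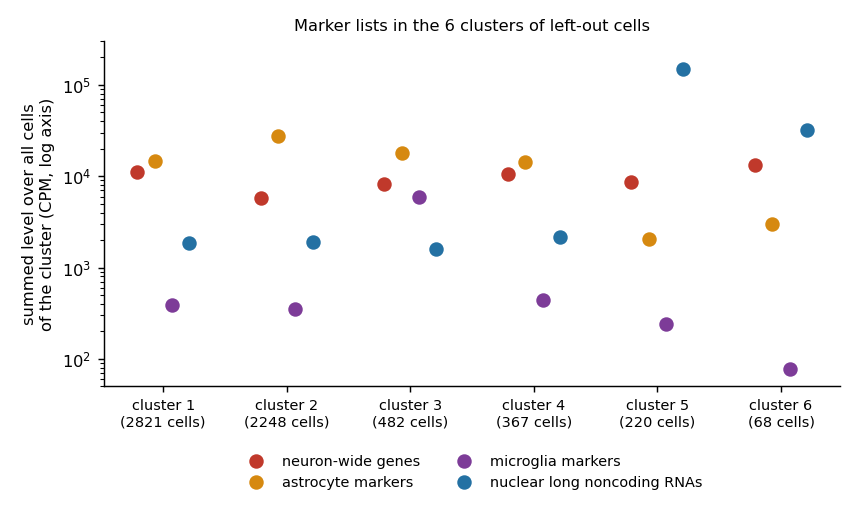
Summed level of 4 marker lists (vertical axis, CPM on a log scale) over all cells of each of the 6 clusters of left-out cells (horizontal axis). Astrocyte markers are highest in cluster 2 (27347 CPM), microglia markers in cluster 3 (5998 CPM), and nuclear long noncoding RNAs in cluster 5 (147977 CPM).

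The share of left-out cells was compared between groups. As a percent of all cells of the library it was 33.2, 28.5, 29.9, 26.1, 12.2 and 11.6 in the naive libraries, 32.8 and 30.5 after seizure, 34.3, 28.6, 24.5 and 20.9 after immobilization, and 33.0, 27.7, 31.7 and 20 after odor. The groups overlapped, and the lowest values came from the libraries with the fewest cells. Means were 23.6% ± 9.35 (SD, n = 6), 31.7% ± 1.63 (n = 2), 27.1% ± 5.75 (n = 4) and 28.1% ± 5.85 (n = 4). Two-sided exact permutation tests against naive gave p = 0.214, 0.533 and 0.414, each 0.533 after Benjamini-Hochberg adjustment over the 3. As a percent of class N cells the means were 69.3, 72.1, 73.4 and 80.4 for naive, seizure, immobilization and odor, with exact permutation p = 0.679, 0.414 and 0.0667 against naive, the last 0.2 after adjustment. The smallest p that these designs allow was 0.0357 for seizure and 0.00476 for the others. After adjustment over the 3, the seizure comparison could pass only if both others were under 0.05 as well. Without the libraries under 300 cells, the immobilization and odor differences turned to -0.321 and -1.34 percentage points. The shares of the 6 clusters did not differ past the threshold in any of 18 comparisons, with an adjusted exact permutation p of 1 in each. These used 5 naive libraries, and adjustment over 18 keeps the smallest p of any single comparison above the threshold. A shift in a single comparison could therefore not have passed.

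Group effects on genes were tested on UMIs summed per library with edgeR's quasi-likelihood test, with Benjamini-Hochberg adjustment over 8619 genes and a threshold of 0.05, on 15 libraries. The 3 contrasts against naive share the naive libraries. In summed counts, fewer cells of a type and less RNA per cell cannot be told apart.

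After seizure, the left-out cells carried more RNA of immediate early genes. Called genes were 7 higher (0.0812% of those tested) and 3 lower (0.0348%), 0.116% in all. Fos, the AP-1 transcription factor (chr12:85473890-85477273, plus strand), stood at 10.3, 5.03, 13.9, 8.88 and 0 CPM in naive replicates 1 to 5 and at 120 and 248 CPM after seizure. The groups did not overlap, and Fos was 18.5-fold higher (log2 4.21, SE 0.37, edgeR adjusted p = 1.62e-15). It kept the call under all of 27 alternatives.

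Egr1, a zinc finger transcription factor, was at 24.9, 45.3, 25.1, 4.44 and 0 CPM in naive libraries and at 141 and 162 after seizure (log2 2.51, SE 0.30, adjusted p = 1.97e-09). Arc (chr15:74669083-74672570, minus strand), which acts at synapses, was at 13.2, 5.03, 16.7, 8.88 and 0 CPM and rose to 52.0 and 90.9 (log2 2.61, SE 0.43, adjusted p = 3.34e-05). Arc lost its call in 2 of 26 alternatives, none of them a library left out, with adjusted p up to 0.5125 over its alternatives. The AP-1 factor gene Junb averaged 9.38 CPM ± 10.1 (SD, n = 5) in naive libraries and was at 72.8 and 98.3 after seizure (log2 2.54, adjusted p = 1.50e-05). For none of these did the seizure libraries overlap the naive ones, as held for 6.44% of all genes tested.

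Lower counts lay behind the other 3 genes that rose. Btg2, an antiproliferative early response gene, had 7 UMIs over 5 naive libraries and 28 and 24 after seizure (log2 3.49, SE 0.58, adjusted p = 4.71e-05). Egr4 had 13 UMIs over the naive libraries and 36 and 23 after seizure (log2 2.81, SE 0.49, adjusted p = 0.000127). Fosl2 had 4 and then 18 and 14 (log2 3.53, SE 0.73, adjusted p = 0.00429), and lost the call without seizure replicate 2 and with the replicate block, where adjusted p = 0.0989 (adjusted p up to 0.700 over its alternatives). DESeq2 did not call Btg2, Egr4 or Fosl2.

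**Figure D4:**
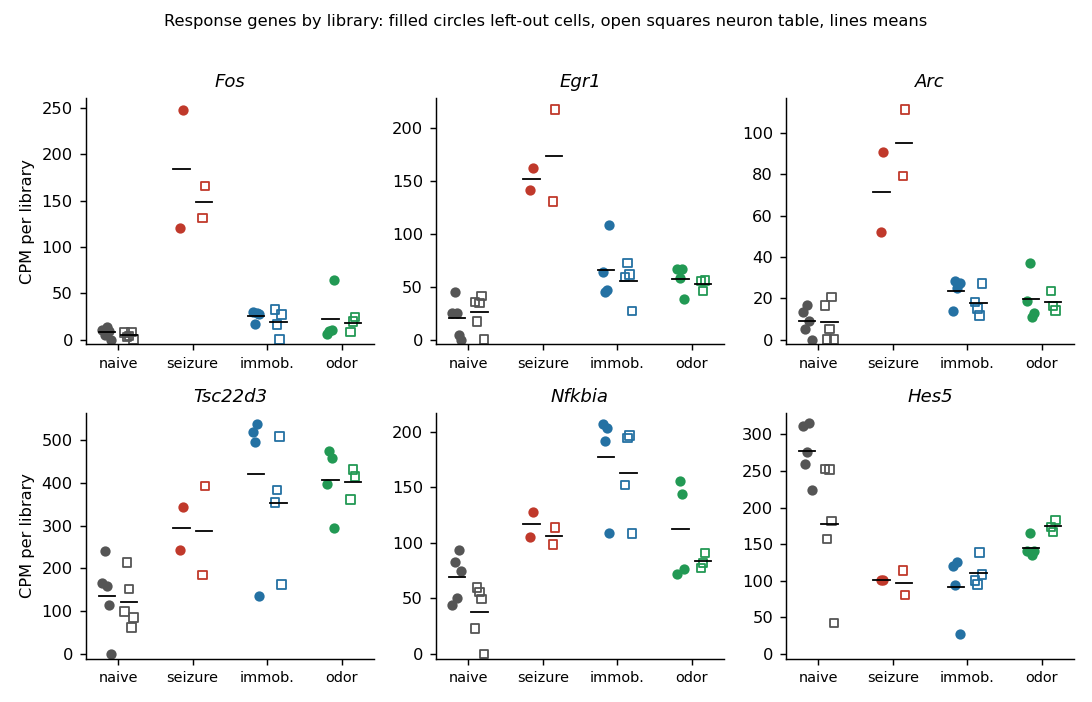
Level per library (vertical axes, CPM) of 6 response genes in the 4 groups (horizontal axes), with filled circles for left-out cells, open squares for the neuron table and lines for means. Fos, Egr1 and Arc are highest in both seizure libraries, Tsc22d3 and Nfkbia are above the naive range in immobilization replicates 1 to 3, and Hes5 is highest in the naive libraries.

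Of 21 listed immediate early transcription factors, 9 had enough counts to be tested; 5 of the 9 rose after seizure and none fell, with a median log2 change of 2.51 against 0.00 over all genes tested. Of 22 listed neuronal activity effectors, 13 were tested and Arc alone rose, with a median of 0.63 and all 13 positive. The filter on low counts asks for enough counts in as few libraries as the smallest group has, which was seizure. A member high in 1 group alone can enter a list through that group. The list counts and medians therefore lean toward members that rose and are no independent support. None of 20 neuron-wide genes changed (median 0.18), nor any of 11 tested astrocyte markers (median -0.03). Summed astrocyte markers were at 18706 CPM after seizure and 19569 in naive libraries.

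The notch target gene Hes5 (chr4:154960923-154962371, plus strand), which is expressed in astrocytes and progenitors, fell after seizure. It was at 311, 259, 276, 315 and 224 CPM in naive libraries and at 101 and 101 after seizure (log2 -1.49, SE 0.22, adjusted p = 3.86e-06). Id3 fell from 187 CPM ± 55.5 (SD, n = 5) to 92.1 and 98.3 (log2 -1.01, adjusted p = 0.0400), a call lost in 16 of 27 alternatives, 8 of them without 1 library. These were naive replicates 1 and 2, both seizure libraries, immobilization replicates 2 and 3, and odor replicates 1 and 3, with adjusted p-values over all alternatives from 0.00200 to 1.00.

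Avp (chr2:130580620-130582554, minus strand), which encodes vasopressin, was called lower in all 3 contrasts against naive, and 1 library decided each call. Its naive levels were 11.7, 1064, 16.7, 204 and 0 CPM, against 10.4 and 12.3 after seizure, 30.7, 0, 3.13 and 0 after immobilization, and 81.1, 37.2, 2.15 and 12.8 after odor. The groups overlapped. The fitted log2 changes of -4.74, -4.40 and -2.92 became -2.29, -1.98 and -0.49 without naive replicate 2, and none then passed the threshold. Without clusters 5 and 6 the calls were also lost.

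After immobilization, genes known to respond to glucocorticoids rose. Called genes were 5 higher (0.058% of those tested) and 2 lower (0.0232%), 0.0812% in all. Tsc22d3, which encodes the glucocorticoid-induced leucine zipper (chrX:140539528-140600659, minus strand), was at 166, 242, 159, 115 and 0 CPM in naive libraries and at 518, 495, 538 and 136 after immobilization. Immobilization replicate 4, with 38 cells, lay within the naive range, and the other 3 lay above it. The change was 1.52 on the log2 scale (SE 0.19, adjusted p = 2.05e-08). DESeq2 gave 1.51 with an adjusted p of 0.113, and the other 26 alternatives kept the call.

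The NF-kappaB inhibitor gene Nfkbia (chr12:55489410-55492647, minus strand) was at 44.0, 83.0, 50.1, 93.2 and 74.7 CPM in naive libraries. It was at 207, 192, 203 and 109 CPM after immobilization, with no overlap (log2 1.62, SE 0.23, adjusted p = 6.84e-07). Dio2 (chr12:90724552-90738438, minus strand), the astrocyte enzyme that activates thyroid hormone, was at 66.0, 67.9, 55.7, 35.5 and 37.3 CPM and then at 130, 175, 166 and 136, also with no overlap, as held for 1.47% of all genes tested (log2 1.39, SE 0.24, adjusted p = 0.000118). The cell cycle inhibitor gene Cdkn1a rose from 8.89 CPM ± 8.39 (SD, n = 5) to 38.1 ± 29.1 (n = 4; log2 2.23, adjusted p = 0.000733), with 0 UMIs in immobilization replicate 4 and the call lost without immobilization replicate 1 and with DESeq2 (adjusted p = 0.342). The small GTPase gene Rhob rose from 59.4 CPM ± 20.8 to 128 ± 32.5 (log2 1.10, adjusted p = 0.00801). Its call was lost in 7 of 27 alternatives, among them those without naive replicate 1, immobilization replicate 2 or immobilization replicate 3, with adjusted p-values over all alternatives from 0.00278 to 1.00. Hes5 was lower here too, at 120, 93.7, 125 and 27.2 CPM, all below the naive range (log2 -1.38, SE 0.19, adjusted p = 2.89e-07).

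Of 22 listed glucocorticoid responsive genes, 16 were tested; Tsc22d3, Nfkbia and Cdkn1a rose, none fell, all 16 were positive, and the median was 0.95 against 0.00 over all genes. In the same list, none passed after seizure (median 0.68, 15 of 16 positive) and Tsc22d3 alone after odor (median 0.58). The 9 immediate early factors had a median of 0.88 after immobilization and none passed. Members of these lists entered through the same filter on low counts, with the limit given above. Fos was at 29.3, 16.3, 28.1 and 27.2 CPM, each above the naive range, with a log2 change of 1.38 (SE 0.47, adjusted p = 0.707).

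After odor exposure, 1 gene was called higher (0.0116% of those tested) and 4 lower (0.0464%), 0.058% in all. Tsc22d3 was at 398, 474, 458 and 294 CPM, above every naive library (log2 1.34, SE 0.19, adjusted p = 2.16e-06). DESeq2 gave 1.41 with an adjusted p of 0.644. Hes5 was at 140, 165, 135 and 141 CPM, below the naive range (log2 -0.95, SE 0.18, adjusted p = 0.00178). Its call was lost in 4 of 27 alternatives, among them cluster 1 alone and cluster 2 alone, and in none with a library left out. Adjusted p-values over all alternatives ran from 0.000240 to 0.225. For Tsc22d3 and Hes5 the odor and naive libraries thus did not overlap, as held for 1.59% of all genes tested. Fabp7, a fatty acid binding protein gene of astrocytes, fell from 1154 CPM ± 438 (SD, n = 5) to 552 ± 94.9 (n = 4; log2 -0.94, adjusted p = 0.0127), and Sfrs18, a splicing-related gene, from 407 ± 161 to 235 ± 82.2 (log2 -0.83, adjusted p = 0.0382). Both groups of values overlapped. Fabp7 lost its call in 10 of 27 alternatives, without naive replicates 1, 4 or 5 or odor replicates 1 or 4 among them, with adjusted p-values over all alternatives from 1.79e-06 to 1.00. Sfrs18 lost its call in 14 of 27, without naive replicates 1, 3 or 5 or odor replicates 2 or 3 among them, with adjusted p-values from 0.000999 to 1.00.

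Between the 2 stimuli, seizure minus immobilization called 3 genes higher and none lower, 0.0348% of those tested. Fos was higher after seizure by 2.83 (log2, SE 0.33, adjusted p = 1.12e-09) and Egr1 by 1.44 (SE 0.28, adjusted p = 0.00595), with no overlap between the libraries of either group, as held for 11.2% of all genes tested. Egr1 lost the call without seizure replicate 2 and without immobilization replicate 2 (adjusted p-values over its alternatives from 0.000826 to 1.00). Erdr1 was higher by 1.52 (SE 0.33, adjusted p = 0.0437) and lost the call in 14 of 26 alternatives, 5 of them without 1 library: naive replicate 5, seizure replicate 2, or immobilization replicate 1, 3 or 4. Its adjusted p-values over all alternatives ran from 0.000287 to 1.00. Only 1 of the 3 genes, Fos, was called by DESeq2, and 327 genes had an unadjusted p under 0.05 in edgeR.

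The share of left-out cells with a Fos UMI gave the seizure response cell by cell. With every cell thinned to 500 UMIs, it was 0.560%, 0.240%, 0.541%, 0.418% and 0% in naive replicates 1 to 5 and 5.66% and 9.28% after seizure. It was 1.60%, 0.765%, 1.45% and 2.63% after immobilization, and 0.337%, 0.637%, 0.615% and 1.18% after odor. Seizure and immobilization libraries all lay above the naive ones, and odor libraries overlapped them. Group means were 0.352% ± 0.234 (SD, n = 5), 7.47% ± 2.56 (n = 2), 1.61% ± 0.77 (n = 4) and 0.691% ± 0.351 (n = 4).

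Two-sided exact permutation tests of these shares gave p = 0.0476 for seizure and 0.00794 for immobilization, the smallest each design allows, and 0.127 for odor. Adjusted over the 3, these were 0.0714, 0.0238 and 0.127. The seizure comparison could pass only if both others were under 0.05 before adjustment as well. Its miss therefore says nothing about the difference. The immobilization share rests on 22 cells with a Fos UMI in 4 libraries. A second thinning seed gave a difference of 0.424 percentage points (adjusted exact permutation p = 0.119) in place of 1.26. Leaving out any 1 naive or immobilization library gave differences from 0.918 to 1.54 and no call. With 1 such library fewer, the smallest p of the immobilization comparison alone cannot pass after adjustment over the 3. That loss therefore says nothing about the difference. Leaving out a seizure or odor library did not touch this comparison. In oligodendrocytes, taken as background at a median of 2181 UMIs before thinning, the thinned means were 0%, 0.719%, 0.138% and 0.227% in the 4 groups. Unthinned, the left-out means were 0.564%, 12.8%, 2.18% and 1.72%.

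The seizure share of left-out cells was 7.47%, beside 5.25% in the neuron table and 14.7% in astrocytes, all thinned to the same depth. Pooled over libraries, Fos in left-out cells went from 10.01 CPM in naive to 170 after seizure in cluster 1, and from 4.67 to 192 in cluster 2, the cluster with most astrocyte RNA.

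**Figure D5:**
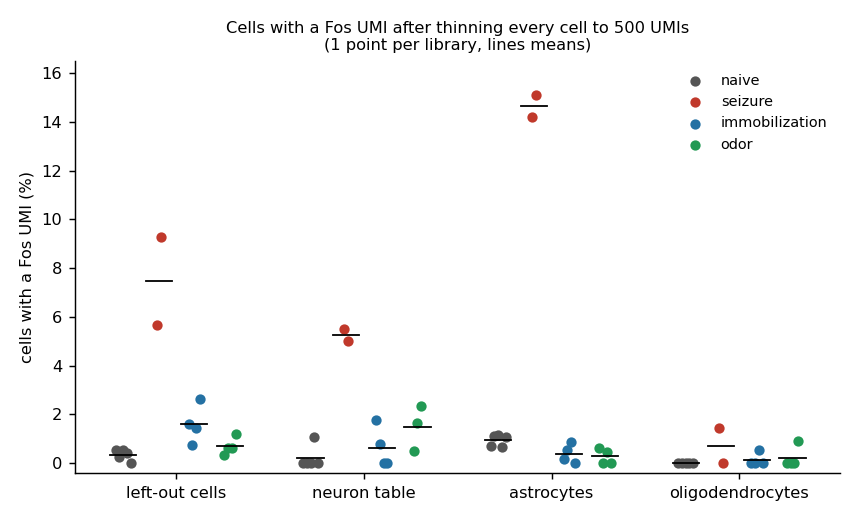
Percent of cells with a Fos UMI (vertical axis) after thinning every cell to 500 UMIs, for 4 cell sets (horizontal axis), with 1 point per library coloured by group and lines for means. Both seizure libraries stand above all others in left-out cells, neuron table and astrocytes.

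Several of the called genes were also called in astrocytes of the same libraries, where 0.466% of genes passed after seizure and 1.51% after immobilization. Their log2 changes were 4.42 for Fos, 5.18 for Egr1 and -1.44 for Hes5 after seizure, and 2.02 for Tsc22d3, 1.87 for Nfkbia, 1.88 for Dio2 and -1.04 for Hes5 after immobilization, each past the threshold. Summed astrocyte markers of left-out cells differed little between groups, at 19569 CPM ± 1099 (SD, n = 5) in naive, 18706 ± 673 (n = 2) after seizure, 19494 ± 802 (n = 4) after immobilization and 19050 ± 1392 (n = 4) after odor. In the left-out cells with a glial marker share below the median, the seizure changes were 3.88 for Fos, 2.171 for Egr1, 2.55 for Arc and -1.73 for Hes5, all past the threshold. There the immobilization changes were 1.30 for Tsc22d3, 1.64 for Nfkbia, 1.54 for Dio2 and -1.77 for Hes5, all past it too. Other calls were lost in these cells: Cdkn1a (1.31, adjusted p = 1.00) and Rhob (0.85, adjusted p = 1.00) after immobilization, Egr4 (2.64, adjusted p = 0.0721) and Id3 (-1.19, adjusted p = 0.660) after seizure, and Hes5 (-1.04, adjusted p = 0.225), Fabp7 (-0.58, adjusted p = 0.839) and Sfrs18 (-0.96, adjusted p = 0.0558) after odor. Erdr1 between seizure and immobilization was lost too (1.60, adjusted p = 0.0622). Cluster 1 alone gave 4.09 for Fos, 1.06 for Tsc22d3 and 1.70 for Nfkbia, and cluster 2 alone 5.18, 1.65 and 1.51, each past the threshold. Arc missed the threshold in cluster 1 (2.14, adjusted p = 0.187), as did Dio2 there (1.46, adjusted p = 0.0583) and Egr1 in cluster 2 (2.12, adjusted p = 0.226).

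The responses of left-out cells and neuron table were compared by the interaction of cell set and group, within library, over 9370 genes in 14 libraries. None of the immediate early or glucocorticoid genes named above differed past the threshold. The difference, left-out minus table, was -0.64 (log2, SE 0.62, adjusted p = 0.999) for Fos, 0.11 (SE 0.38) for Egr1 and -0.70 (SE 0.61) for Arc after seizure. It was -0.04 (SE 0.18, adjusted p = 1) for Tsc22d3, -0.35 (SE 0.28) for Nfkbia and -0.49 (SE 0.30) for Dio2 after immobilization. The neuron table's own changes were 4.73 for Fos, 2.43 for Egr1 and 3.23 for Arc after seizure and 1.57 for Tsc22d3 after immobilization.

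The interaction called 4 genes in the seizure contrast, 0.0427% of those tested, and 3 each in the immobilization and odor contrasts, 0.032% each. DESeq2 called none in any of the 3, where edgeR had 430, 357 and 394 genes at an unadjusted p under 0.05, and none was called with both sets held to 700 to 1000 genes. In the seizure contrast, the nuclear RNAs Snhg11 (1.35, SE 0.18), Meg3 (1.23, SE 0.18) and Malat1 (0.93, SE 0.13) had higher changes in left-out cells than in the table, and Sst (-1.33, SE 0.24) a lower one. Meg3 (chr12:109541001-109571726, plus strand) ran from 613 to 6437 CPM over the naive libraries of left-out cells and was at 4887 and 5702 after seizure, within that range. In the neuron table it ran from 1367 to 8792 CPM and was at 2947 and 3019. Without clusters 5 and 6, only 1 of the 4 genes was called. The Meg3 call was lost without naive replicate 5, and the Sst call without naive replicate 1 or seizure replicate 1.

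In the odor contrast Meg3 (1.77), Snhg11 (0.98) and Avp (5.50) differed, and in the immobilization contrast Avp (9.05), the neuroendocrine gene Resp18 (1.10) and the adhesion gene Nptn (0.79). Avp in the neuron table was at 25439 CPM in naive replicate 4 and at 0 in all 4 immobilization libraries, so its fitted difference depends on the prior count and is no measure of size. The immobilization call of Avp was lost without immobilization replicate 1, that of Resp18 without naive replicate 4, and that of Nptn in 16 of 21 alternatives. Nptn lost it without any of naive replicates 1, 2 or 4, seizure replicates 1 or 2, immobilization replicates 1, 2 or 4, or odor replicates 1, 2 or 3. Snhg11 in the odor contrast lost its call without naive replicates 4 or 5 or immobilization replicate 4.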

How the data were processed

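The authors deposited unnormalized UMI counts, as 1 table of all cells and 1 of neurons. Per the submitters' processing notes, bcl2fastq 2.17.1.14 and STAR 2.5.0a were used with the mm10 build. Nothing on the counting tool, strand use, cell filters or removal of doublets is given by the sources at hand, so overlapping and antisense genes cannot be told apart. No doublet caller was run. Cells took their library and class letter from their column names, and the other tables of the series were not used here. The members and gene lists were chosen with earlier results of these data known.

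UMIs were summed per library and cell set where it had at least 10 cells, which left out naive replicate 6. The libraries tested held 26788 to 715706 UMIs of left-out cells, which limits genes of few UMIs. Sums were tested with edgeR 4.0.16 (limma 3.58.1, R 4.3.3; TMM scaling, quasi-likelihood test, all groups in 1 fit), and DESeq2 1.42.0 was an alternative. A gene was called at a Benjamini-Hochberg adjusted p under 0.05. Shares of cells were compared by exact permutation tests that ran through every split of the libraries, in Python 3.11.15. Where stated, cells were thinned to 500 UMIs. Clustering used 2000 variable genes, 20 principal components, 15 neighbours and Leiden at a resolution of 0.4 (leidenalg 0.10.2). The scripts were tested on simulated data. Named genes were the 4 markers, every called gene, the 15 with the largest difference from the neuron table in each direction among genes at 100 CPM or more that moved one way in every library, list members, and Fos, Egr1, Arc, Nfkbia, Tsc22d3 and Dio2. Alternatives were scaling, filters on genes and cells, DESeq2, age and replicate terms, each library left out, and, chosen after seeing the data, cells of low glial share, single clusters and cells of 700 to 1000 genes. Positions are from GENCODE on GRCm38, the same assembly as mm10.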

Additional observations from a re-analysis of the deposited data

Results flagged for a closer look

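In 14 of 111 groups of 4 to 6 libraries that were looked at, 1 library of left-out cells stood far from the others. Chance flags about 1 in 20 such groups. Immobilization replicate 4, with 38 left-out cells, gave 6 of them: Tsc22d3 at 136 CPM (others 495 to 538), Nfkbia at 109 (192 to 207), Resp18 at 54.3 (245 to 263), Egr4 at 136 (9.38 to 16.8), Fabp7 at 1549 (583 to 703) and summed ribosomal protein genes at 70833 (42250 to 46429). Odor replicate 4, with 85 cells, gave 3: Fos at 63.9 CPM (others 5.53 to 10.7), Malat1 at 6975 (1034 to 2032) and Snhg11 at 2696 (187 to 551). Naive replicate 5, with 28 cells, had Nptn at 485 CPM (184 to 244) and summed neuron-wide genes at 6047 (8108 to 8680).

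The other 3 came from larger libraries. Avp was at 1064 CPM in naive replicate 2 (others 0 to 204) and at 30.7 in immobilization replicate 1 (0 to 3.13), and Fos was at 16.3 in immobilization replicate 2 (27.2 to 29.3).

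The change from naive differed between left-out cells and neuron table, by the interaction in edgeR, for 10 pairs of gene and contrast. In log2, left-out minus table, these were 1.35 for Snhg11, 1.23 for Meg3, 0.93 for Malat1 and -1.33 for Sst after seizure. They were 9.05 for Avp, 1.10 for Resp18 and 0.79 for Nptn after immobilization, and 1.77 for Meg3, 5.50 for Avp and 0.98 for Snhg11 after odor.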

How the results depend on the processing

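In the group contrasts, the calls of Fos and Junb after seizure, Nfkbia after immobilization and Hes5 after both held under every alternative run for them. DESeq2 called 5, 3, 1 and 1 genes in seizure, immobilization and odor minus naive and in seizure minus immobilization, where edgeR called 10, 7, 5 and 3. Cluster 1 alone gave 5, 4, 2 and 1, and cluster 2 alone gave 2 after seizure. For odor, 8 genes were called with no filter on low counts, 2 from libraries of at least 50 cells, 3 from cells at or above the median UMIs, 2 from cells of low glial share and 3 without clusters 5 and 6. For seizure minus immobilization, 15 were called with no filter, 12 with those 2 groups alone and 1 from cells at or above the median UMIs. Leaving out 1 library gave 9 to 13, 6 to 11, 3 to 8 and 2 to 8 genes. The Avp change after odor turned to 0.10 in cluster 2.

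For the difference from the neuron table, DESeq2 and cells of 700 to 1000 genes gave 0 calls in each contrast, and Meg3 and Snhg11 after seizure turned to -0.30 and -0.70 in the latter. Without clusters 5 and 6 the counts were 1, 1 and 6 for seizure, immobilization and odor, and thinning gave 1 for immobilization. Leaving out 1 library gave 3 to 7, 1 to 7 and 2 to 6. Genes higher in left-out cells in every library numbered 41 against class N cells of the table, 71 without table clusters N12 to N16 and 81 at 700 to 1000 genes. Those lower numbered 1 after thinning and 39 without N12 to N16. Nuclear long noncoding RNAs turned to 0.25 without N12 to N16 and 0.43 at 700 to 1000 genes, and ribosomal protein genes to 0.021 after thinning.

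Without libraries under 300 cells the share of left-out cells differed from naive by -0.321 after immobilization and -1.34 after odor. Without 1 library the differences ran from 5.69 to 10.01 for seizure, 1.06 to 5.53 for immobilization and 2.12 to 7.21 for odor. The thinned Fos share after immobilization differed by 0.424 with another seed and 0.812 at 1000 UMIs. Without 1 library it ran from 0.918 to 1.54, from 5.31 to 8.93 for seizure and from 0.178 to 0.458 for odor. With the replicate block the counts of called genes were 9, 7, 4 and 3. The labels do not pair the libraries, and the median correlation of 18 same-number pairs was 0.0240, from -0.0942 to 0.0968. Of 15 libraries, 2 correlated best with their own number. Cells with no glial marker UMI were not run as an alternative. The cause of these shifts was not tested.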
